A study of Mus musculus with 10 samples.

Results

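The genes described here control the sterol balance of a cell and the making and sensing of 25-hydroxycholesterol. They are Ch25h, Cyp7b1, Gpr183, Insig1, Stard4, Srebf2, Abca1 and Abcg1, 8 of the 19938 genes measured, and were chosen by name for their place in the pathway. Each had 1 probe whose annotation names that gene alone. Whole-transcript Affymetrix arrays measured total RNA of tumors that the mouse colon carcinoma line MC38 formed under the skin of C57BL/6 mice. One group of 5 tumors was injected with CpG1826, 50 µg in 50 µL of PBS at a tumor size of about 40 mm2, and the other 5 with PBS alone. CpG1826 is an oligodeoxynucleotide whose unmethylated CpG motifs activate mouse TLR9. Tumors were taken 6 h after injection, and since the protocol describes the CpG1826 injection only, the same schedule was assumed for PBS. No gene was deleted and no transgene was named in either group. The mouse numbers in the labels were 50, 58, 183, 189 and 595 for CpG1826 and 26, 29, 482, 592 and 661 for PBS. Each tumor is whole tissue, so a lower value in a group may mean fewer cells of a type or less RNA per cell, which cannot be told apart. The labels do not say whether the mice were treated on 1 day, and the p-values measure the spread between these 10 tumors.

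Cells sense cholesterol in the membrane of the endoplasmic reticulum. When it is scarce, SCAP carries the transcription factor SREBP2, the product of Srebf2, to the Golgi for cleavage, and the released factor switches on genes of sterol synthesis and uptake. When cholesterol or 25-hydroxycholesterol is plentiful, INSIG proteins hold SCAP and SREBP2 back. Ch25h encodes the enzyme that makes 25-hydroxycholesterol, and is known as a gene that interferons and Toll-like receptor ligands induce in macrophages and dendritic cells. Cyp7b1 turns it into 7α,25-dihydroxycholesterol, the ligand of the migration receptor GPR183 (EBI2). Oxysterols also activate the nuclear receptors LXRα and LXRβ, which raise Abca1 and Abcg1, the exporters of cholesterol to apolipoprotein A-I and to high-density lipoprotein.

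The start of 4 members is printed because the comparison sets an oxysterol enzyme against SREBP2 genes and an LXR target. RefSeq promoter windows of build GRCm38.p6 matched 5 of the 8 members (Ch25h, Gpr183, Insig1, Srebf2 and Abca1). Each line holds the 200 bases before the annotated start, from -200 to -1, 5′ to 3′ on the gene's own strand. Capitals mark the matches named after the sequences.
Abca1, chr4:53159896-53160095, minus strand: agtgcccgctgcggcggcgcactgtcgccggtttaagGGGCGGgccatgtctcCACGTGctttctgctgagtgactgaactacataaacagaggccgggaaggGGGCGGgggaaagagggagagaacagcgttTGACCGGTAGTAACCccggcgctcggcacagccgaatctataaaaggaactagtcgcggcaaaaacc
Srebf2, chr15:82147069-82147268, plus strand: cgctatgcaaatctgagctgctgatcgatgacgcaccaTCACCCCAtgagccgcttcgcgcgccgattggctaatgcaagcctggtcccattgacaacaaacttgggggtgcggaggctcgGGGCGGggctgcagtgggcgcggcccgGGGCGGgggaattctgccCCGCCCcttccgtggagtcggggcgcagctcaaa
Insig1, chr5:28071212-28071411, plus strand: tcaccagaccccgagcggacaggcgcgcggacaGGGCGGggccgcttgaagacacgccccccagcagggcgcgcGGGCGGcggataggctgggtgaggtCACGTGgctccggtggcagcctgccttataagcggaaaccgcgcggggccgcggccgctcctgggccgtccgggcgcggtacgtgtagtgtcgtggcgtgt
Ch25h, chr19:34475149-34475348, minus strand: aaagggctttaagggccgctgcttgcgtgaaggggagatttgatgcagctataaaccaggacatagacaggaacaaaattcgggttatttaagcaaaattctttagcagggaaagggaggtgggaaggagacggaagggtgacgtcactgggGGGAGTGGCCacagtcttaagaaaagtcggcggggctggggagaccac
Motifs were searched on both strands of the whole windows (250 bases before to 50 after the start), and their letters were set with these windows in view. In Abca1 the capitals are, in order, a GC box (GGGCGG), an E-box (CACGTG), a second GC box and, from -67 to -53 on the reverse strand, a pair of half-sites spaced like an LXR element (GGTNA and GGTCA with 5 free bases between them), which occurs in 0.207% of the 32851 windows. In Srebf2 they are an SRE-like run (TCACNCCA, from -162 to -155, in 4.36% of windows), followed by 2 GC boxes and 1 GC box on the reverse strand. In Insig1 they are 2 GC boxes and an E-box, and in Ch25h a κB-like run from -48 to -39 (GGGA and CC with 4 free bases between them, in 20.7% of windows). The GC box occurs in 35.7% and the E-box in 7.15% of windows, and letters of these motifs overlap no other match in the 4 lines. The core of an interferon-stimulated response element (GAAA repeated after 2 free bases, in 3.44% of windows) had no match in any of the 5 windows. A match describes letters and is not evidence of binding.

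The 8 genes did not move as 1 group. Stard4 and Abcg1 fell, Abca1 was higher in every CpG1826 tumor than in any PBS tumor but missed the threshold, and Ch25h, Gpr183, Cyp7b1, Insig1 and Srebf2 did not pass. In the limma fit over all genes with Benjamini-Hochberg adjustment, at an adjusted p under 0.05, 2 of the 8 members were called lower and 0 higher, where 1.10% and 3.56% of all genes were called in these directions (4.66% in either). The groups were fully separate for 2 of the 8, against 6.78% of all genes. These were Stard4, on the lower side (2.42% of all genes), and Abca1, on the higher side (4.35%). At an unadjusted p under 0.05, Insig1, Stard4 and Abcg1 were on the lower side and Cyp7b1 and Abca1 on the higher side. That threshold was met by 15.6% of all genes, 7.43% on the lower and 8.13% on the higher side, and these shares are the background of every unadjusted count given here.

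**Figure D1:**
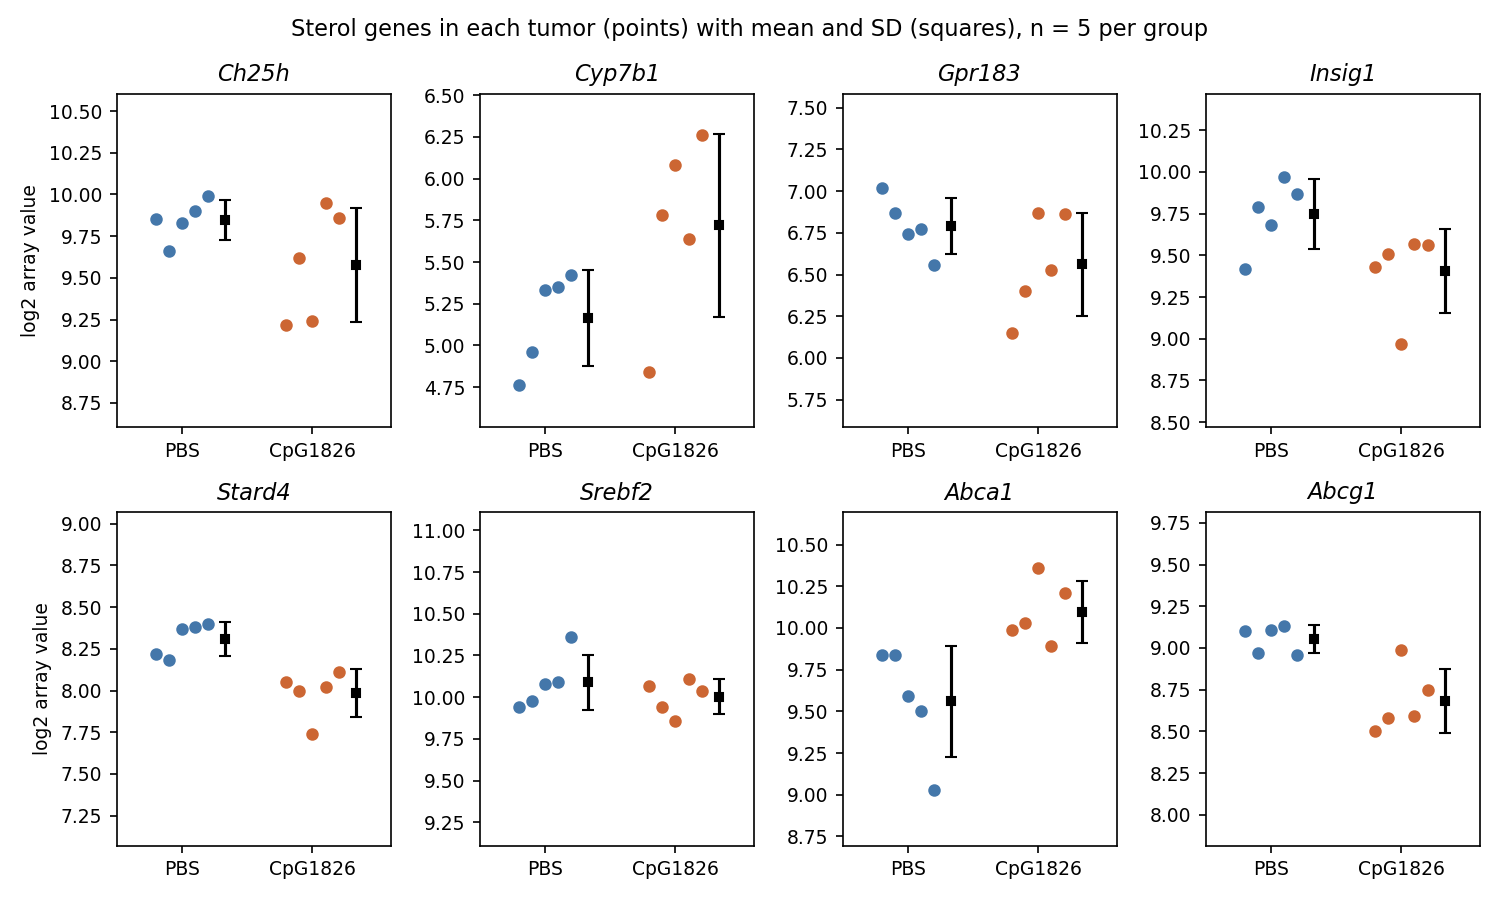
Log2 array values of the 8 genes in each tumor (points, in the order of mouse number within PBS in blue and CpG1826 in orange), with the mean and SD of 5 tumors as a black square and bar; every panel spans 2.0 log2 units. Stard4 and Abca1 are the genes whose groups do not overlap, and Insig1 and Stard4 each have 1 low CpG1826 point, mouse 183.

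Ch25h, the enzyme that makes 25-hydroxycholesterol, was above the array medians in every tumor and showed no rise with CpG1826. Its log2 values in PBS tumors were 9.85, 9.66, 9.83, 9.90 and 9.99 for mice 26, 29, 482, 592 and 661. In CpG1826 tumors they were 9.22, 9.62, 9.24, 9.95 and 9.86 for mice 50, 58, 183, 189 and 595. Mice 50, 58 and 183 lay below every PBS tumor and mice 189 and 595 within the PBS range, so the groups overlapped. The group means were 9.85 ± 0.12 and 9.58 ± 0.34 (SD, n = 5 per group), and the log2 fold change of -0.27 ± 0.14 (SE) did not pass (95% confidence interval -0.57 to 0.02, limma adjusted p = 0.371). The upper end of that interval is a 1.02-fold rise. With any 1 mouse left out its log2 fold change ran from -0.36 to -0.18, at a limma adjusted p of 0.156 to 0.604.

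Interferon-stimulated genes of the same tumors were measured on a comparison list that holds no sterol gene. Like the other lists, it was chosen with earlier results of these data known. Of its 20 measured genes 15 rose and 0 fell, at a median log2 fold change of 0.54, where the median of all genes was -0.02. Mx2, an antiviral GTPase, rose by 1.27 and Rsad2, which encodes viperin, by 1.04 on the log2 scale; both were named after their values were seen. The difference between the change of Ch25h and that of these genes was not tested.

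Cyp7b1, the 7α-hydroxylase that acts on 25-hydroxycholesterol, had higher values in most CpG1826 tumors. Its log2 values were 4.76, 4.96, 5.33, 5.35 and 5.42 in PBS mice 26, 29, 482, 592 and 661. They were 4.84, 5.78, 6.08, 5.64 and 6.26 in CpG1826 mice 50, 58, 183, 189 and 595. In 4 of the 5 CpG1826 tumors the value was above every PBS tumor, and mouse 50 lay among the PBS values. The log2 fold change was 0.55 ± 0.22 (SE, 1.47-fold, 95% confidence interval 1.05 to 2.05) and did not pass (limma adjusted p = 0.234). Without CpG1826 mouse 50 it was 0.78 and passed (limma adjusted p = 0.0154; with any 1 mouse left out the range was 0.0154 to 0.414). All 10 values lie below the array medians of 6.47 to 6.53, a range in which array summaries can compress differences.

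Gpr183, the receptor that guides B cells, dendritic cells and other leukocytes along the oxysterol gradient, was lower than in any PBS tumor in 3 of the 5 CpG1826 tumors and did not pass. PBS values were 7.02, 6.87, 6.74, 6.77 and 6.56 in the mouse order used above, and CpG1826 values 6.15, 6.40, 6.87, 6.53 and 6.86. The 3 low tumors were those of mice 50, 58 and 189, and mice 183 and 595 lay within the PBS range. The log2 fold change was -0.23 ± 0.13 (SE, 95% confidence interval -0.52 to 0.06, limma adjusted p = 0.456). With any 1 mouse left out it ran from -0.31 to -0.13, the latter without CpG1826 mouse 50, the lowest. Among markers of cells that can carry the receptor, 0 of 9 measured B cell genes and 0 of 9 T cell genes were called, at medians of -0.10 and -0.19, and 1 of 10 dendritic cell genes rose (Ccr7, 0.75) at a median of -0.10 with 8 of 10 below 0. At an unadjusted p under 0.05, 1 B cell gene and 2 T cell genes were on the lower side, as were the dendritic cell genes Clec9a (-0.32) and Clec10a (-0.40). The summed marker level of dendritic cells, as the mean log2 value of the list, was 6.24 to 6.39 in PBS and 6.12 to 6.36 in CpG1826 tumors. The part of these cells in the Gpr183 values was not tested.

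Around these 3 genes, the list of oxysterol enzymes and receptors had 12 measured genes, of which 1 fell and 0 rose, at a median log2 fold change of -0.05 (1 lower and 2 higher at an unadjusted p under 0.05). The median was -0.09 without PBS mouse 26 and -0.01 without PBS mouse 661, and lay between -0.03 and -0.02 without CpG1826 mouse 50, 58 or 595. It was -0.01 with either filter on low values, which kept 11 genes (lower quartile) or 6 genes (median) of the list. The gene that fell was Cyp27a1, the mitochondrial sterol hydroxylase, which makes another LXR ligand. Its values were 7.09, 7.24, 7.30, 7.25 and 7.14 in PBS and 6.60, 6.40, 6.66, 6.57 and 6.88 in CpG1826 tumors, without overlap. It was 1.5-fold lower (95% confidence interval 1.32 to 1.70, limma adjusted p = 0.00109), and it passed at an adjusted p under 0.01 and in every fit that leaves out 1 mouse (0.0004 to 0.0046). Hsd3b7, the next enzyme after Cyp7b1, which inactivates the GPR183 ligand, differed by 0.02 ± 0.07 (SE, adjusted p = 0.932). Nr1h3, which encodes LXRα, had a log2 fold change of 0.54 ± 0.21 (SE) and did not pass (limma adjusted p = 0.229); it was lowest in PBS mouse 661 (6.46) and highest in CpG1826 mouse 183 (8.39). Without mouse 183 it was 0.34, and with any 1 mouse left out 0.34 to 0.64.

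**Figure D2:**
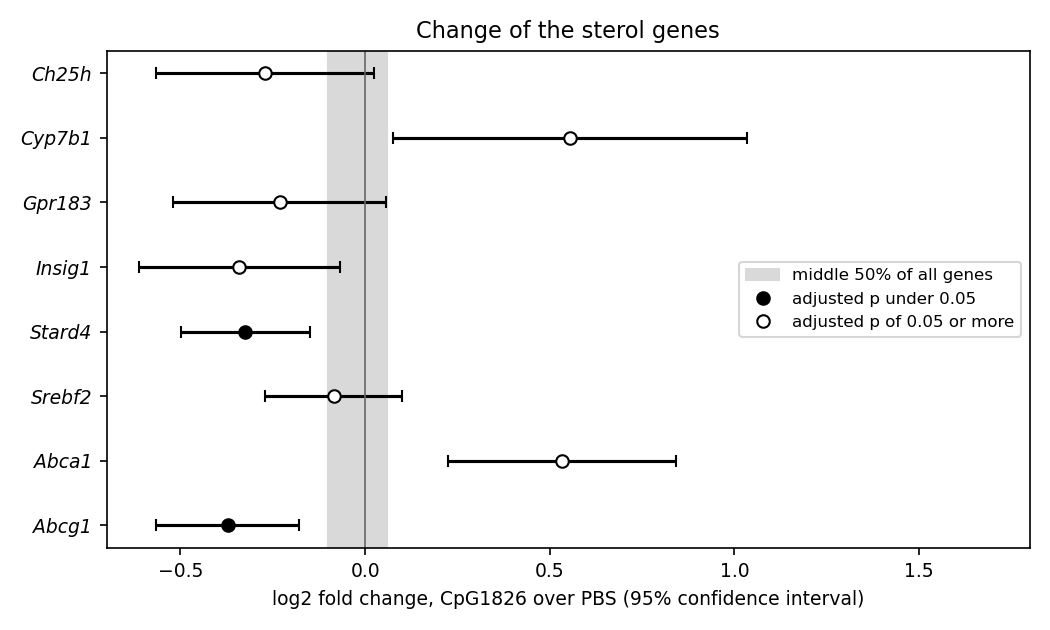
Log2 fold change of CpG1826 over PBS for the 8 genes with 95% confidence intervals from limma (n = 5 per group); filled points have an adjusted p under 0.05, and the grey band holds the middle 50% of all genes. Stard4 at -0.32 and Abcg1 at -0.37 are filled, and Abca1 at 0.53 and Cyp7b1 at 0.55 lie to the right of 0 as open points.

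Stard4, a carrier that moves cholesterol between membranes and is itself a target of SREBP2, fell in CpG1826 tumors. Its log2 values were 8.22, 8.18, 8.37, 8.38 and 8.40 in PBS mice 26, 29, 482, 592 and 661. They were 8.05, 8.0, 7.74, 8.02 and 8.11 in CpG1826 mice 50, 58, 183, 189 and 595. Every CpG1826 tumor was below every PBS tumor, and mouse 183 was the lowest. The means were 8.31 ± 0.10 and 7.99 ± 0.15 (SD, n = 5 per group), which differ by -0.32 ± 0.08 (log2, SE). Stard4 was 1.25-fold lower (95% confidence interval 1.11 to 1.41, limma adjusted p = 0.0369). With any 1 mouse left out, its limma adjusted p ranged from 0.0383 to 0.0949 and its log2 fold change from -0.36 to -0.26. It missed the threshold when the mouse left out was PBS 482, 592 or 661 or CpG1826 50, 58, 183 or 189.

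Insig1, which retains SCAP and SREBP2 in the endoplasmic reticulum and is a sensitive SREBP2 target, had a fold change of similar size but a wider spread. PBS values were 9.42, 9.79, 9.68, 9.97 and 9.87, and CpG1826 values 9.43, 9.51, 8.97, 9.57 and 9.56, in the same order of mice. All 5 CpG1826 tumors were below the PBS mean of 9.75. PBS mouse 26 lay lower than 4 of them, and CpG1826 mouse 183 lay below every PBS tumor. The log2 fold change of -0.34 ± 0.13 (SE, 1.27-fold lower, 95% confidence interval 1.05 to 1.53) did not pass (limma adjusted p = 0.187). Srebf2, the gene of the transcription factor itself, was at 9.94, 9.98, 10.08, 10.09 and 10.36 in PBS and 10.07, 9.94, 9.86, 10.11 and 10.04 in CpG1826 tumors. CpG1826 mouse 183 lay below every PBS tumor, mouse 58 lay at the lowest PBS value to 2 decimals, and the other 3 lay within the PBS range. The difference was -0.08 ± 0.09 (SE, 95% confidence interval -0.27 to 0.10, limma adjusted p = 0.709). It was -0.02 without PBS mouse 661, the highest, and -0.05 without CpG1826 mouse 183, the lowest. SREBP2 is controlled mainly by cleavage of the protein, which arrays do not measure.

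The SREBP2 target list extends these 3 members to the synthesis pathway from acetyl-CoA to cholesterol. Of its 20 measured genes, Stard4 fell, 0 rose and the other 19 did not pass, and at an unadjusted p under 0.05 there were 4 on the lower and 0 on the higher side. Their estimates leaned to 1 side: 18 of the 20 log2 fold changes were below 0, where 58.0% of all genes were, and the list median was -0.14, where the median of all genes was -0.02. Leaving out the 3 members, 15 of 17 were below 0, at a median of -0.13. The median stayed between -0.17 and -0.09 over all alternatives, and was -0.09 with 16 of 20 below 0 without CpG1826 mouse 183. Hmgcs1, the enzyme that makes HMG-CoA, differed by -0.07 ± 0.11, Idi1, an isomerase of the isoprenoid steps, by -0.12 ± 0.13, and Sqle, squalene epoxidase, by -0.24 ± 0.11 (log2, SE), and none of them passed. Cyp51 and Dhcr7, later enzymes of the pathway named after their values were seen, differed by -0.25 and -0.21. Averaged over the list, the log2 level was 8.64 to 8.91 in PBS and 8.44 to 8.77 in CpG1826 tumors, with the lowest value in CpG1826 mouse 183 and the second lowest in PBS mouse 26.

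The proteins that regulate SREBP2 did not pass at the transcript level. Of 7 measured genes of the processing machinery 0 were called, and 1 had an unadjusted p under 0.05, Insig1. Scap, the escort protein, differed by -0.06 ± 0.07, and Insig2, the second retention protein, by 0.16 ± 0.08. Mbtps1, the protease of the first cleavage, differed by -0.08 ± 0.06, and Srebf1, the SREBP of fatty acid synthesis, by -0.12 ± 0.09 (log2, SE). Among 16 SREBP1 target genes Fasn, fatty acid synthase, fell and 0 rose, at a list median of -0.13 with 13 below 0 (7 lower and 0 higher at an unadjusted p under 0.05). Fasn was 1.22-fold lower (95% confidence interval 1.11 to 1.34, limma adjusted p = 0.0176), a call that needed PBS mouse 482 and CpG1826 mouse 183 (0.0191 to 0.0538 with any 1 mouse left out). Scd2, a stearoyl-CoA desaturase on both this and the LXR list and named after its values were seen, lay between 11.60 and 11.74 in PBS and between 10.40 and 11.44 in CpG1826 tumors. Its log2 fold change of -0.57 did not pass (limma adjusted p = 0.0526), and without CpG1826 mouse 183, the lowest, it was -0.39 and passed (limma adjusted p = 0.00812; 0.00812 to 0.119 over such fits).

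**Figure D3:**
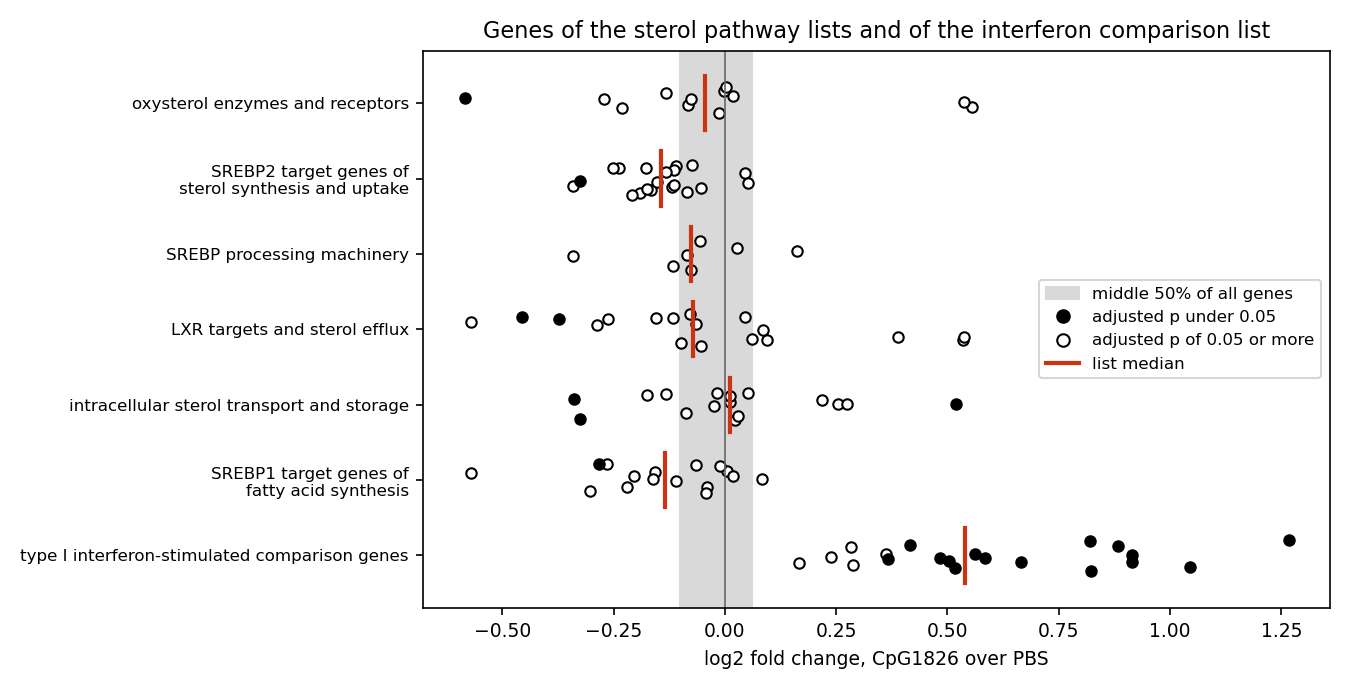
Log2 fold change of CpG1826 over PBS for each measured gene of the 6 sterol and lipid lists and of the interferon comparison list (points; height within a row carries no meaning), with the list median as a red line and the middle 50% of all genes as a grey band. The medians of the 6 lists lie between -0.14 and 0.01, and that of the interferon list at 0.54.

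Abca1, the exporter that loads cholesterol onto apolipoprotein A-I, had its 5 CpG1826 values above all PBS values without passing the test. Its log2 values were 9.84, 9.84, 9.59, 9.50 and 9.03 in PBS mice 26, 29, 482, 592 and 661. They were 9.99, 10.03, 10.36, 9.89 and 10.21 in CpG1826 mice 50, 58, 183, 189 and 595. PBS mouse 661 was the lowest of the 10 and CpG1826 mouse 183 the highest. The means were 9.56 ± 0.33 and 10.10 ± 0.19 (SD, n = 5 per group). The log2 fold change of 0.53 ± 0.14 (SE, 1.45-fold, 95% confidence interval 1.17 to 1.79) had a limma adjusted p of 0.0521 and did not pass. With any 1 mouse left out the limma adjusted p ranged from 0.0432 to 0.133, and it passed when that mouse was PBS 26 or 29 or CpG1826 189. It also passed with array weights, a trended and robust prior, centred arrays or genes below the lower quartile or the median of level left out (0.0291 to 0.0472 over these 5 settings).

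Abcg1, which passes cholesterol to high-density lipoprotein, fell. Its log2 values were 9.10, 8.97, 9.11, 9.13 and 8.96 in PBS mice 26, 29, 482, 592 and 661. They were 8.50, 8.58, 8.99, 8.59 and 8.75 in CpG1826 mice 50, 58, 183, 189 and 595. In 4 of 5 CpG1826 tumors the value was below every PBS tumor, and mouse 183 lay within the PBS range. The means were 9.05 ± 0.08 and 8.68 ± 0.19 (SD, n = 5 per group), and Abcg1 was 1.29-fold lower (95% confidence interval 1.13 to 1.48, limma adjusted p = 0.0305). With any 1 mouse left out the limma adjusted p ranged from 0.00449 to 0.0786. Abcg1 missed the threshold when that mouse was PBS 26, 29, 482 or 592 or CpG1826 50, 58 or 189, and with array weights (0.0522). The log2 fold change kept its sign, at -0.45 to -0.32.

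Each tumor's Abca1 value minus the PBS mean of Abca1, less the same quantity for Abcg1, gives the change of the first exporter relative to the second. This difference was 0.98, 0.94, 0.86, 0.80 and 0.95 on the log2 scale in CpG1826 mice 50, 58, 183, 189 and 595. In PBS tumors it was 0.24, 0.36, -0.03, -0.13 and -0.44 in mice 26, 29, 482, 592 and 661. The lowest CpG1826 value lay above the highest PBS value, and the SD was 0.07 in CpG1826 and 0.31 in PBS tumors (n = 5 per group). The pair was taken after its values were seen, and the difference carries no test. Abca1 alone already separated the groups, and all 5 CpG1826 values of Abcg1 lay below its PBS mean. The separation of the difference follows from these values and is no further result.

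**Figure D4:**
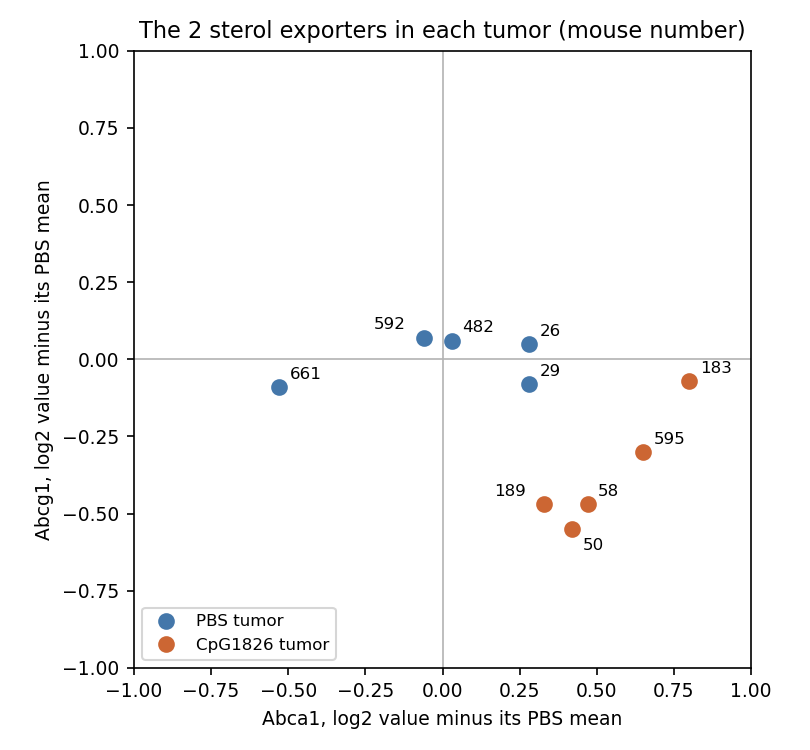
Each point is 1 tumor, placed by its log2 value of Abca1 (horizontal) and of Abcg1 (vertical), each minus the gene's own PBS mean, with the mouse number beside it. The CpG1826 tumors (orange) lie to the lower right, from 0.33 to 0.80 for Abca1 and from -0.55 to -0.07 for Abcg1.

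Among all 18 measured LXR targets and efflux genes, Abcg1 and Mylip fell and 0 rose, at a median of -0.07 with 11 below 0. The median was -0.12 without PBS mouse 26 and stayed between -0.11 and -0.05 under the other alternatives. At an unadjusted p under 0.05 there were 4 on the lower and 3 on the higher side. Mylip, which encodes the ubiquitin ligase IDOL, was at 8.27, 7.98, 8.16, 8.13 and 7.95 in PBS and 7.34, 7.51, 7.82, 7.65 and 7.90 in CpG1826 tumors. The groups did not overlap, and Mylip was 1.37-fold lower (95% confidence interval 1.17 to 1.61, limma adjusted p = 0.0254). It missed the threshold when PBS mouse 26, 482 or 592 or CpG1826 mouse 50 or 58 was left out (limma adjusted p of 0.0134 to 0.0700 with any 1 mouse left out). Apoe, the apolipoprotein of macrophages, differed by 0.05 ± 0.15, and Pltp, a phospholipid transfer protein named after its values were seen, by 0.39 ± 0.11 (log2, SE, adjusted p = 0.0578). With CpG1826 mouse 183 or 595 left out 3 genes of the list fell, 1 did when PBS mouse 29 or 592 or CpG1826 mouse 189 was, and 0 did when PBS mouse 26 or 482 or CpG1826 mouse 50 or 58 was left out.

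Sterol transport and storage inside the cell had 16 measured genes, of which 1 rose and 2 fell. At an unadjusted p under 0.05 there were 3 on the lower and 4 on the higher side. The list median was 0.01, with 7 genes below 0. The sign of this median was not stable: it was -0.04 without PBS mouse 26, -0.02 with array weights, and below 0 also without CpG1826 mouse 595 and after a further quantile normalization. Over all alternatives 5 to 10 of the genes were below 0. Gramd1a, a protein of the endoplasmic reticulum that takes cholesterol from the plasma membrane, rose from 8.51, 8.96, 9.01, 9.01 and 8.83 in PBS to 9.45, 9.35, 9.52, 9.24 and 9.35 in CpG1826 tumors, without overlap. This was 1.43-fold (95% confidence interval 1.24 to 1.66, limma adjusted p = 0.00702), and it passed in every fit that leaves out 1 mouse (0.00659 to 0.0217). Besides Stard4, Lipa fell, the lysosomal acid lipase that frees cholesterol from its esters (1.26-fold lower, 1.11 to 1.44, limma adjusted p = 0.0483). That call was lost without any 1 mouse other than CpG1826 mouse 595 (0.0433 to 0.125 over such fits).

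The genes whose values over the 10 arrays were most like those of the called members were found by the root-mean-square difference after each gene was centred on its own mean. For Stard4 they were Csrp2 (0.050 log2 units), Fads1 (0.061), a fatty acid desaturase that is also on the SREBP1 list, and Olfr862 (0.073), against a median of 0.234 for all other genes. For Abcg1 they were Klc4 (0.066), Kcnk6 (0.075) and Laptm5 (0.085), against 0.261. The choice by likeness over all 10 arrays fixes a change of similar size, so the log2 fold changes are a description: -0.35, -0.30 and -0.26 for Csrp2, Fads1 and Olfr862, and -0.34, -0.41 and -0.36 for Klc4, Kcnk6 and Laptm5.

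Single tumors stood out in more than 1 gene, and the genes listed here were picked after their values were seen. CpG1826 mouse 183 had the lowest Insig1, Stard4, Srebf2, Sqle, Idi1, Cyp51, Fads1 and Scd2 of all 10 tumors. It also had the highest Abca1, Nr1h3, Apoe and Pltp. PBS mouse 661 had the lowest Abca1, Nr1h3 and Apoe and the highest Srebf2. The mean log2 level of 11 macrophage markers was highest in mouse 183 (10.06) and lowest in mouse 661 (9.47). That of the endothelial markers was also highest in mouse 183 (7.64) but was not lowest in mouse 661 (7.45). Mouse 183 had the lowest keratinocyte marker level of the CpG1826 tumors (6.85). The part of any of these cells in the sterol gene values was not tested.

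Markers of other cells moved with the treatment. Of 18 keratinocyte markers 14 rose and 0 fell, with a list level of 5.37 to 5.84 in PBS and 6.85 to 7.67 in CpG1826 tumors. For 12 neutrophil markers 7 rose, with levels of 5.63 to 5.82 and 6.26 to 6.65, and Ly6g was at 4.70 in both groups. Of 11 macrophage markers 3 rose (Cd14, Msr1 and Fcgr1) and Csf1r fell by 0.46, at a median of -0.02 and levels of 9.47 to 9.81 and 9.71 to 10.06. Of 10 sebocyte markers Krt79, Far2 and Fabp5 rose, at levels of 5.01 to 5.24 and 5.29 to 5.57. Among 10 endothelial markers Tek fell, at a median of 0.01 (levels 7.36 to 7.48 and 7.27 to 7.64). At an unadjusted p under 0.05, 1 endothelial marker, Tek, was on the lower and 2 were on the higher side. For adipocytes 0 of 8 markers were called (5.75 to 5.97 and 5.83 to 5.91), with 0 at an unadjusted p under 0.05. For fibroblasts 0 of 10 were called (9.74 to 9.87 and 9.39 to 9.89), with 2 at an unadjusted p under 0.05. Of 10 epithelial markers Epcam and Cdh1 rose (levels 5.59 to 5.92 and 5.69 to 6.04). In PBS tumors the means of 3 of these 10 lay above the array medians (Krt8 at 6.93, Cdh1 and Cldn4 both at 6.74) and those of the other 7, with Krt18 at 5.42 and Cdx2 at 5.58, below them. The part of any of these cell types in the sterol genes was not tested, and it cannot be told apart from a change within cells.

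**Figure D5:**
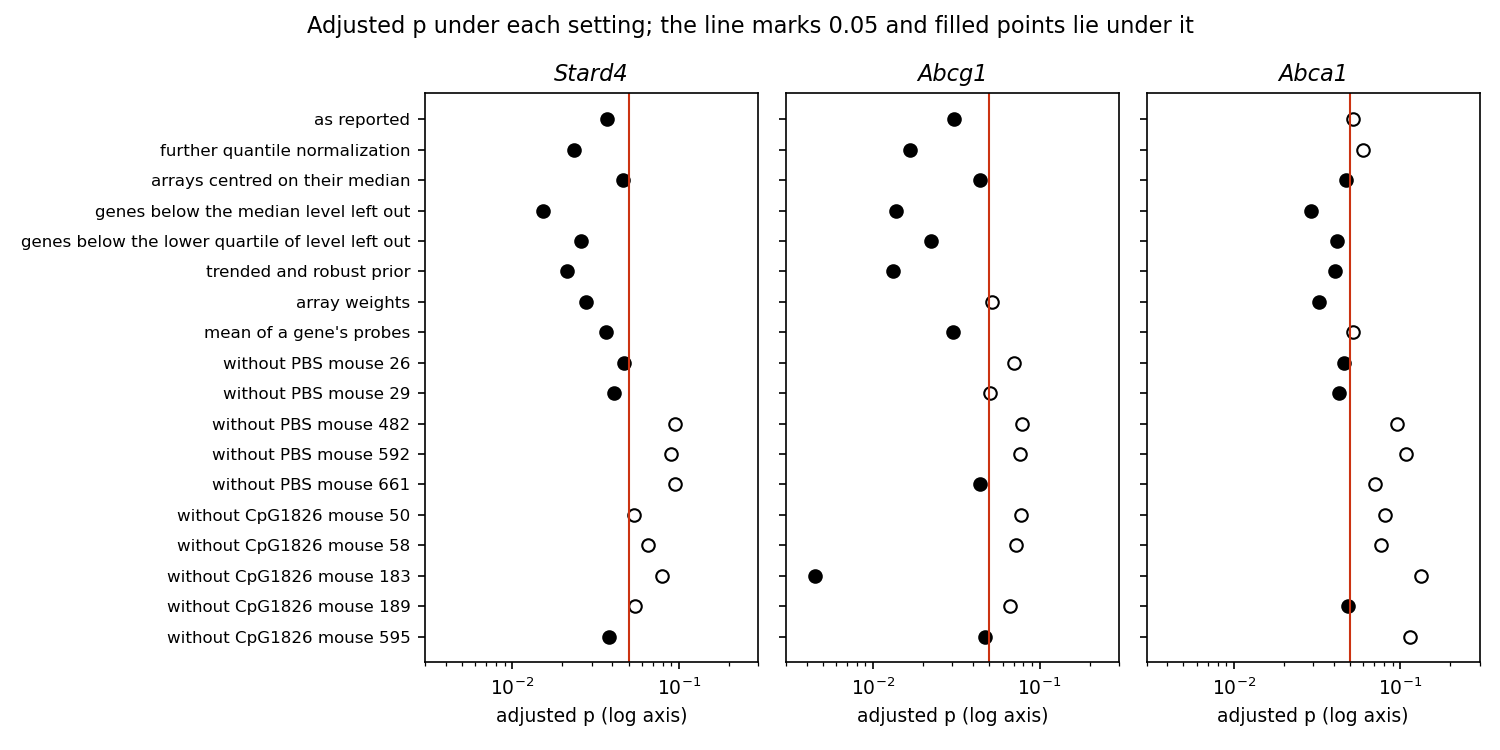
Adjusted p of Stard4, Abcg1 and Abca1 as reported and under 17 other settings each (rows), on a log axis with a red line at 0.05; filled points lie under the line. All 3 genes lie on both sides of the line depending on the setting.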

How the data were processed

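The authors deposited 1 table of log2 values, 35512 probes on 10 arrays, with a range of 2.03 to 14.7 and array medians of 6.47 to 6.53. The range of the values, that of scanner intensities on a log2 scale, gave the log base. Per the submitters' processing notes R 2.7.1 and limma were involved, without saying for what. For background correction, probe summary and array normalization, the method was not given in the sources used here. If arrays were aligned to each other, a shift common to most genes would not show.

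Probes with exactly 1 gene symbol (21789) were used, and the probe with the highest mean stood for a gene (999 of 19938 genes had several, none of them a member). All genes were fitted in R 4.3.3 with limma 3.58.1 (lmFit, eBayes), two-sided, and called at a Benjamini-Hochberg adjusted p under 0.05. A fold change is CpG1826 over PBS, on the log2 scale. The number of arrays limits the precision. The fit was checked on simulated data with normal noise drawn separately for each gene. It called 75 of 100 genes given a log2 change of 0.5, 100 of 100 given a change of 1, and 8 unchanged genes. Smaller changes, such as those of Stard4 and Abcg1, were not simulated.

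The members and lists were chosen with earlier results of these data known. Named are the 8 members, up to 4 further called genes of each of 6 pathway lists (or the 2 with the highest level), 14 sterol genes whatever their values where measured, and the 3 genes most like each called member; all others, the cell type markers and interferon genes included, were named after their values were seen. Lists are described by counts and medians without a test. The alternatives were a further quantile normalization, centring, filters on low values, a trended and robust prior, weighted arrays, probe means, an adjusted p under 0.01 and leaving out each mouse. The filters on low values left fewer genes in some lists. Mouse numbers are not shared between groups. No genome was used; coordinates are those of the RefSeq windows, build GRCm38.p6.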

Additional observations from a re-analysis of the deposited data

Results flagged for a closer look

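In 2 of the 16 sets of 5 values (8 genes in 2 groups) 1 tumor stood apart from the other 4 by Dixon's test at the 95% level, and chance alone marks about 1 set in 20. Both were CpG1826 mouse 183. Its Insig1 value of 8.97 lay below the other CpG1826 tumors, with a gap of 0.762 of the group's whole range. Its Stard4 value of 7.74 lay below them by 0.714 of the range. Without this mouse the log2 fold change was -0.23 for Insig1 (limma adjusted p = 0.331) and -0.26 for Stard4 (limma adjusted p = 0.0797).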

How the results depend on the processing

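No paired analysis was possible because the mouse numbers of the 2 groups are not shared. No member changed sign under any alternative. Of the 8 members, 1 was called higher with centred arrays, with either filter on low values, with the trended and robust prior and with array weights (Abca1 in each). Cyp7b1 and Gpr183 were not in the fit that left out genes below the median level. With array weights 1 was called lower, and 0 were at an adjusted p under 0.01. Leaving out 1 mouse gave 0 to 1 called higher and 0 to 2 called lower. For the SREBP2 list 0 were called lower at an adjusted p under 0.01, and 0 to 1 without 1 mouse. For the LXR list 2 were called higher with centred arrays, either filter, the other prior or array weights, 0 were called lower at an adjusted p under 0.01, and leaving out 1 mouse gave 0 to 2 higher and 0 to 3 lower. Of all genes, 407 were called higher and 64 lower at an adjusted p under 0.01, 364 were called lower after a further quantile normalization and 338 with genes below the median level left out. Leaving out 1 mouse gave 558 to 667 higher and 121 to 209 lower genes (121 without PBS mouse 482). A stricter threshold and fewer genes or arrays change these counts by construction; for the other settings the cause was not tested. The median standard error over all genes was 0.09 (log2), and that of Insig1 was 0.13.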
